A study of Drosophila melanogaster with 22 samples.

Results

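The 12 libraries described here hold polyA RNA from the young end of the ovariole in virgin Drosophila melanogaster females aged 5 to 8 days after eclosion. They are all the libraries of days 5, 6, 7 and 8 among the 22 of the series, and they were taken as a single group with no contrast between days. The features described are the 17478 annotated FlyBase genes, out of 19146 features counted. Every female was of the w1118 genotype, a white-eyed laboratory strain, raised and aged at 25 °C under constant light. The groups were aged 5 to 5.5, 6 to 6.5, 7 to 7.5 and 8 to 8.5 days, with 3 biological replicates a day. Each sample pooled 30 to 50 hand-dissected ovarioles, cut so as to keep the germarium and the egg chambers up to stage 7. A value is thus a mean over many ovarioles and cell types. The tissue carried no transgene or drug that the labels name.

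An ovariole is a string of egg chambers of increasing age behind a germarium, which holds the germline and follicle stem cells. In each chamber, polyploid nurse cells make ribosomes, mRNAs and organelles that they pass to the oocyte, while a follicle epithelium surrounds the germline. Yolk uptake and the bulk of eggshell synthesis come in later chambers, which were trimmed away here. In bulk libraries of this kind, fewer cells of a type and less RNA per cell cannot be told apart.

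Gene counts per library ran from 2975582 to 4634327, with a median of 3795277.5, and the number of genes seen in a library from 8679 to 9548. A total of 3 counts corresponds to 0.647 to 1.01 CPM, the count of a gene relative to all gene counts of its library, and to 0.0668 CPM over the pooled libraries, which limits how low a gene could be seen, for counting error only. Pearson correlations of log2 CPM across genes lay between 0.951 and 0.981 for all pairs of libraries, with medians of 0.972 for the 12 pairs of the same day and 0.970 for the 54 pairs of different days. No library therefore stood apart by its correlation with the rest. Levels are given as TPM, counts divided by the annotated exon length of the gene and scaled to the same total in each library, so that genes can be compared. An SD is over the 12 libraries and holds the spread between replicates and between days together.

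The defining markers fitted the labelled tissue. Of 26 germline markers, 24 reached a mean of 1 TPM. The highest was osk, whose mRNA directs assembly of the germ plasm, at 1534 ± 191 TPM (SD, n = 12). It was followed by tral at 1179 ± 129 TPM and me31B at 731 ± 81.8 TPM, which encode repressors of stored mRNAs. The germline helicase gene vas stood at 186 ± 12.2 TPM and bam, active in dividing cystoblasts of the germarium, at 19.2 TPM. All 17 follicle cell markers reached 1 TPM, led by the transcription factor genes tj at 236 ± 30.4 TPM and eya at 127 ± 25.4 TPM. The later follicle marker slbo, which acts in migrating border cells, was at 1.54 TPM. Of the 10 genes listed for the germarium soma, 8 reached 1 TPM and 3 reached 10 TPM, led by fax at 97.0 TPM. Among the low ones, hh stood at 1.13 TPM, while en had 9 counts and wg 1 count over all libraries.

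Markers of other tissues were mostly low, and some of the exceptions are genes that ovarian cells also make. The neuronal list reached 1 TPM in 1 of 12 genes, elav, at 3.04 TPM. The gut list reached 1 TPM in 7 of 21 genes and the tracheal list in 2 of 7, none of them at 10 TPM. Of 14 fat body markers, 6 reached 1 TPM and 5 reached 10 TPM. The highest were the yolk protein genes Yp3, Yp2 and Yp1, which follicle cells also express, at 93.9, 50.3 and 37.4 TPM, whereas the larval serum protein gene Lsp2 had 7 counts and Fbp2 none. Of 14 haemocyte markers, 6 reached 1 TPM, 5 reached 10 TPM and 2 reached 100 TPM. These last were the type IV collagen genes Cg25C and vkg, which follicle cells also express, at 832 ± 162 and 584 ± 103 TPM. The haemocyte receptor genes He and NimC1 had no count and Hml had 47. Pxn, another of the list, ranged from 1.44 CPM in day 8 replicate 2 to 33.9 CPM in day 5 replicate 2. Markers of muscle, which forms the contractile sheath of the ovariole, were present at a low level. Of 16 sheath muscle markers, 15 reached 1 TPM and 7 reached 10 TPM. Tm1 stood at 72.0 TPM and the myosin heavy chain gene Mhc at 19.9 TPM. The list summed to 635 to 1105 CPM, of which Tm1 alone averaged 351 CPM. Whether the Tm1 RNA came from muscle was not tested. The testis list contained a single abundant gene, dhd, at 1526 ± 296 TPM. That gene encodes a thioredoxin known from the female germline and was wrongly placed in the list. Of the other 21 testis genes, bol, mia and twe lay between 8.25 and 8.85 TPM, fzo at 1.14 TPM, and the rest below 1 TPM.

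The levels of protein-coding genes fell into a broad low class and a taller high class. Among 13919 protein-coding genes, 2689 had no count in any library. The most populated level was 32 to 64 TPM, with 1725 genes, and the low class peaked between 0.0625 and 0.125 TPM with 778 genes. The least populated level between those peaks was 2 to 4 TPM, with 366 genes. Of all 17478 genes, 8106 (46.4%) had a mean of at least 1 TPM, and 7377 (42.2%) had a count in every library. The genes of at least 1 TPM held 99.9% of the counts at the median.

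**Figure D1:**
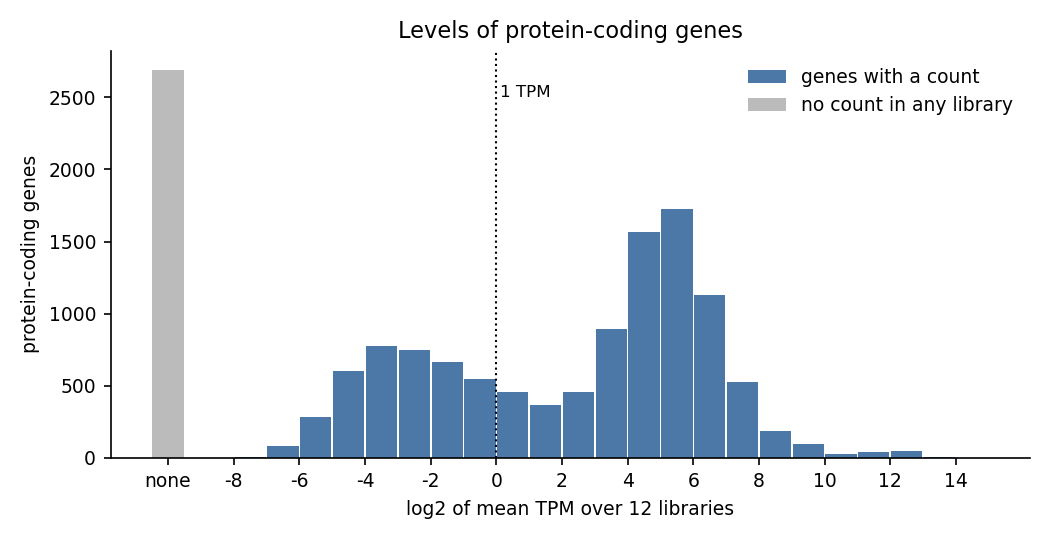
Number of protein-coding genes at each level of mean TPM over the 12 libraries, in steps of 1 on a log2 axis, with the genes that had no count in a grey bar at the left. The tallest blue bar, at 32 to 64 TPM, holds 1725 genes, and the grey bar holds 2689.

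The transcriptome was dominated by the machinery of protein synthesis. Only 97 genes held 50% of the TPM, and the 100 most abundant held 50.8 ± 2.26% (SD, n = 12). Of these 100, 77 encode proteins of the cytosolic ribosome and 7 are translation factors. By counts, which weigh long transcripts more, 313 genes were needed for 50%. At the other end, 855 genes held 75% of the TPM and 2735 genes held 90%.

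RpL41, which encodes the smallest protein of the ribosome, had the highest mean, with 15836 TPM in the lowest library, 21508 at the median and 26556 in the highest. Ef1alpha48D, the elongation factor that brings aminoacyl-tRNA to the ribosome, ranged from 18806 to 22290 TPM around a median of 20737. Their ranges overlapped, RpL41 being first in 7 libraries and Ef1alpha48D in 5, and their means of 21060 ± 2805 and 20659 ± 1245 TPM differed by less than the SD of either. RpL23A, another ribosomal protein gene, stood at 10230 ± 583 TPM, and none of its libraries reached the lowest of the first 2 genes. Further down, neighbouring genes were not separated beyond their spread, as with RpLP1 at 9579 ± 808 TPM and sta, the ribosomal protein SA gene, at 9533 ± 878 TPM.

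In all, 16 of the 20 most abundant genes encode ribosomal proteins. The other 4 were Ef1alpha48D, the chaperone gene Hsc70-4 at 8005 ± 657 TPM, the mitochondrial large ribosomal RNA mt:lrRNA at 7278 ± 2180 TPM and the translocation factor gene EF2 at 6808 ± 501 TPM. The mitochondrial RNA was the most uneven of the 20, from 4691 to 11649 TPM. Each library's own first 20 held 17 to 20 of these genes, and the 20 together made up 17.3 to 20.8% of the TPM. Abundant genes outside protein synthesis included awd, a nucleoside diphosphate kinase gene, at 3072 ± 305 TPM, sesB, the mitochondrial ADP/ATP carrier gene, at 2349 ± 281 TPM, Cyp1, a cyclophilin gene, at 2193 ± 155 TPM, and Nap1, a histone chaperone gene, at 1974 ± 125 TPM.

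**Figure D2:**
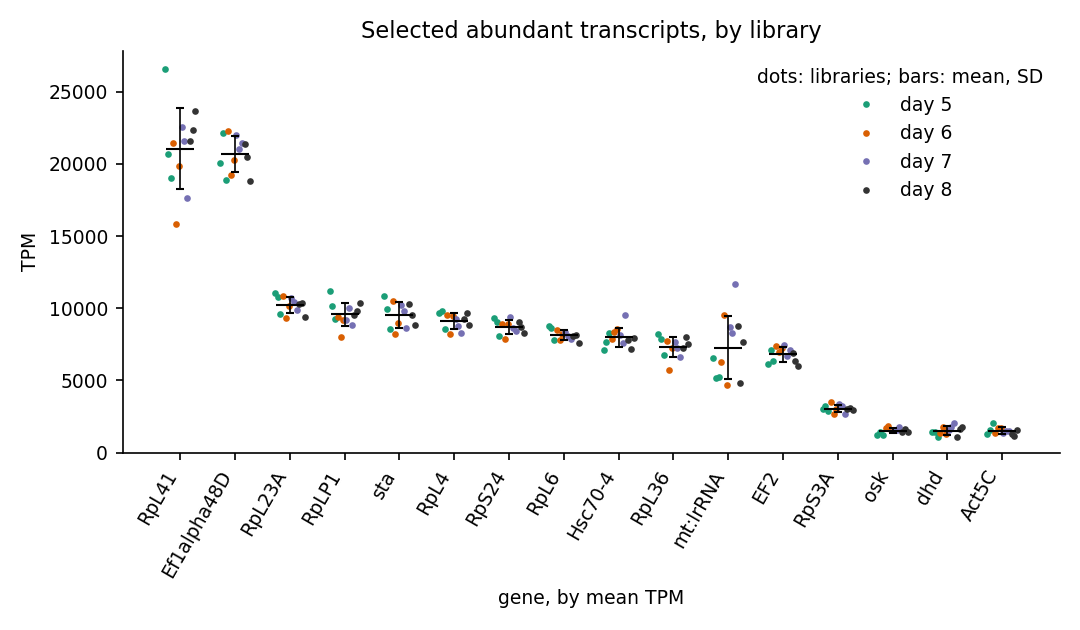
TPM of 16 selected abundant genes, in order of their mean, with a dot per library coloured by day and the mean and SD over 12 libraries in black. RpL41 and Ef1alpha48D stand above the rest, and mt:lrRNA spreads from 4691 to 11649 TPM.

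The ribosomal protein genes moved together between libraries. Of 92 in the list, 84 reached 100 TPM. As a group they took 16.3 to 23.0% of the gene counts, with a median of 20.1%. Day 5 replicate 1 was the highest library for 52 of the 84 and day 6 replicate 2 the lowest for 54 of the 84, the same libraries that bound the share of the group. Over all 6657 genes averaging 5 CPM or more, day 5 replicate 1 was the highest for 669 and day 6 replicate 2 the lowest for 690. Day 6 replicate 2 was also the shallowest library, at 2975582 gene counts, and the highest for the mitochondrial small ribosomal RNA. The part of depth or RNA quality in this was not tested. Within each library TPM sum to a fixed total, so a larger share of these abundant genes lowers the TPM of all others.

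Of all genes, 4677 (26.8%) had no count in any of the 12 libraries, 1739 had a count in a single library, and 3466 had 1 to 9 counts in all. Genes with no count were short and simply built. Protein-coding genes with no count had a median exon length of 977 nt and 31.3% had a single exon, against 2150.5 nt and 9.91% in those of at least 1 TPM. The share with no count fell with length, from 64.3% of protein-coding genes under 200 nt to 19.1% at 1000 to 2000 nt and 2.77% at 5000 nt or more. A longer transcript gives more reads at the same molar level, so length and expression were not separated by this count.

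Many genes of taste, smell, cuticle and mating had no count. Against 19.3% of all protein-coding genes, no count was found for 36 of 59 odorant receptors, 35 of 60 gustatory receptors, 32 of 49 odorant binding proteins, 14 of 24 Osiris genes, 46 of 93 cuticle proteins and 23 of 46 seminal fluid proteins. The share was lower in other families: 25 of 66 ionotropic receptors, 13 of 79 cytochrome P450 genes and 1 of 16 Jonah proteases had none. Most Jonah genes had counts at a trace level only, 4 of the 16 reaching 1 TPM. Among the genes without a count, 1 odorant receptor, 4 gustatory receptor, 3 odorant binding protein and 1 cuticle protein genes have under 76 nt of exon outside other genes of their strand, so their zeros say little. The families were not tested against other genes.

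Some members of these families stood out from their relatives. Or43b, an odorant receptor gene, had counts in every library, from 2.92 to 15.7 TPM with a median of 11.5. Ir62a, an ionotropic receptor gene, ranged from 5.19 to 12.96 TPM around 8.66. Both were low but present throughout. The odorant binding protein gene Obp99a ranged from 35.4 to 120 TPM around 67.2, and the cytochrome P450 gene Cyp6v1 from 29.9 to 56.1 TPM around 45.6. Each of these 4 genes was the most abundant of its family.

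The sex of the tissue was also visible. On the Y chromosome 107 of 113 genes had no count, 21 of 23 protein-coding ones among them. The male-fertility dynein genes kl-2, kl-3 and kl-5 were among the longest genes with no count, at 13386, 13882 and 13680 nt of exon. FDY, a Y gene that arose as a copy of a gene on another chromosome, had 34 counts over 11 libraries. The male dosage compensation RNA roX2 had no count and roX1 was at 0.386 TPM, while Sxl, the master gene of female sex determination, was at 93.1 ± 8.78 TPM.

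A zero did not always mean a silent gene. The germline list held cup, which encodes a translational repressor bound to eIF4E in the oocyte, with no count at all, and BicC, an RNA-binding protein gene of oogenesis, with 4 counts. In the deposited FlyBase annotation cup lies on chromosome 2L at 6663664 to 6674780, on the plus strand, and all of its 4306 nt of exon also belong to CG34310, which overlaps it. CG34310 has 265 nt of its own and received 246 counts. BicC, on chromosome 2L at 16042047 to 16048757, has 236 of its 4547 nt to itself and shares the rest with CG45084, which had no count. The small heat shock gene Hsp22 and the mitochondrial ribosomal protein gene mRpL53 likewise had no unshared exon and no count.

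The same held across the annotation. Of 724 genes with less than a read length, 76 nt, of exon outside other genes of their strand, 662 (91.4%) had no count. Of the 662, 299 have under 76 nt of exon in all, as do 59 of the genes of the 724 that had a count, so shortness and sharing were not separated in them. Among those with at least 200 nt of exon in all, 343 of 346 had none. In the longest run of neighbouring protein-coding genes with no count outside the histone cluster, 23 annotated precursors of mod(mdg4) on chromosome 3R (21354445 to 21373575), 21 had under 76 nt of unshared exon, while mod(mdg4) itself, a chromatin insulator gene, stood at 52.9 ± 4.81 TPM. Levels of such genes were not measured by these counts.

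Gene copies were a further blind spot. The replication-dependent histone genes, which lie in a tandem repeat on chromosome 2L and whose mRNAs end without a polyA tail, had no count in 108 of 111 cases and 7 counts in all. They formed the longest runs of neighbouring protein-coding genes with no count, of 56 genes (21418112 to 21485209) and 50 genes (21487655 to 21537368). After them and the mod(mdg4) precursors, the next run was of 12 Stellate repeat genes on the X chromosome (14000210 to 14060157). The copies within each cluster are nearly identical, and the treatment of reads that match several copies is not recorded in the sources used here. Other runs were shorter, such as 9 genes around the cecropins CecA1, CecA2, CecB and CecC, which encode antimicrobial peptides, on 3R (30209948 to 30250661). The longest run of neighbours that all reached 1 TPM had 31 genes, from CG8814 to CG17261 on 2L (2874890 to 3043593), and included okr, a recombination repair gene.

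Protein-coding genes took 98.7 to 99.3% of the counts in a library. Of 2470 ncRNA genes 53.7% had no count and 11.7% reached 1 TPM, and as a class they held 0.185 to 0.310% of the counts. Small nucleolar RNAs, which guide modification of ribosomal RNA, were detected more often than any other class apart from mRNA, with 21.2% of 288 at no count and 70.1% at 1 TPM or more, although as a class they held 0.0286 to 0.0888% of the counts and their TPM rest on few reads. Transfer RNA genes had no count in 87.9% of 313 cases, and rRNA genes in 78.2% of 147. The most abundant ncRNA was MRE16 at 794 ± 127 TPM, and the longer CR42862 followed at 326 ± 116 TPM. RNaseMRP:RNA, the RNA of an enzyme that processes ribosomal RNA, stood at 264 TPM, and snRNA:7SK, which holds the elongation factor P-TEFb inactive, at 332 ± 87.5 TPM.

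**Figure D3:**
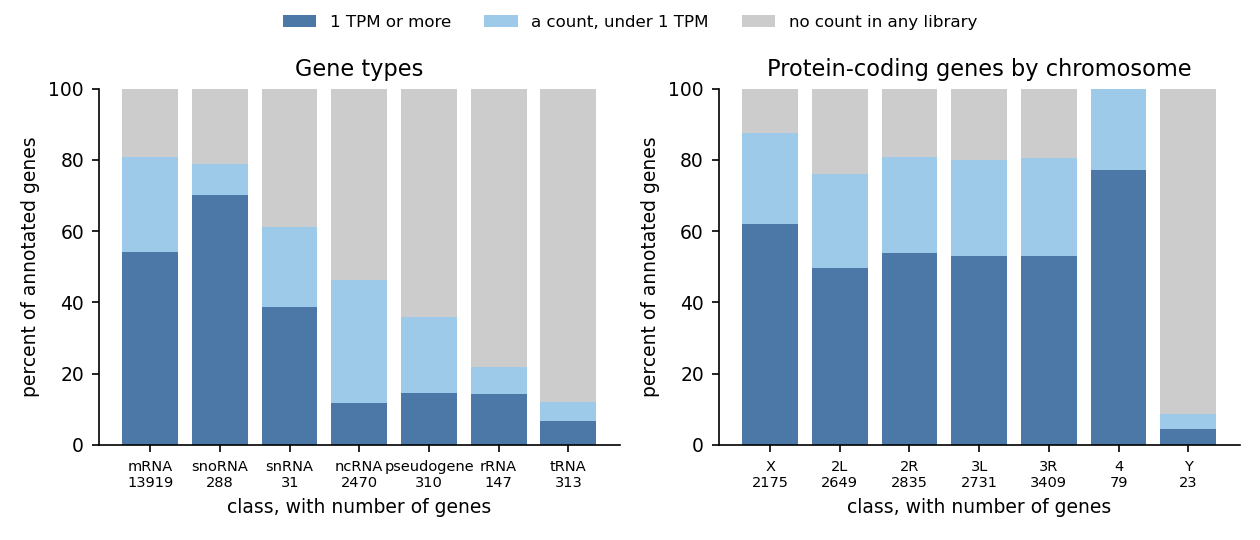
Share of annotated genes at 1 TPM or more (dark), with a count but under 1 TPM (light) and with no count in any of 12 libraries (grey), by gene type at the left and by chromosome for protein-coding genes at the right, with the number of genes under each bar. Chromosome 4 has no grey part, with 0 of 79 genes uncounted, and the X has a smaller grey part, 12.5%, than the arms of chromosomes 2 and 3.

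Chromosomes differed in how many of their protein-coding genes were detected. On the X, 271 of 2175 genes (12.5%) had no count and 62.0% reached 1 TPM. On the arms of chromosomes 2 and 3 together, 2393 of 11624 (20.6%) had none and 52.4% reached 1 TPM, and 2L had the highest share with none, 24.05%. Genes of the X have a longer median exon length, 1997 nt against 1657 to 1705 nt on those arms. Within length classes the X still had the smallest share of the 5: 35.9% against 38.1 to 49.0% under 1000 nt, 12.05% against 18.2 to 23.7% at 1000 to 2000 nt, and 3.50% against 7.33 to 8.47% from 2000 nt. These shares describe annotated genes and were not tested.

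The small chromosome 4, which is largely heterochromatic, had a count for every one of its 79 protein-coding genes, and 77.2% reached 1 TPM. Its genes are long, with a median of 4336 nt of exon. Its most abundant gene was RpS3A, a ribosomal protein gene at 3050 ± 252 TPM, followed by ATPsynbeta, an ATP synthase subunit gene, at 1205 ± 72.1 TPM. Among genes of at least 1 TPM, the median level was 37.0 TPM on the X, 33.5 TPM on chromosome 4 and 31.4 TPM on the arms of 2 and 3. Of all counts, 18.8 ± 0.161% fell on the X and 1.08 ± 0.0357% on chromosome 4. The mitochondrial genome varied more, at 0.927 ± 0.285%, between 0.588 and 1.51%.

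Levels repeated closely from library to library. Variation was measured over the 6657 genes averaging 5 CPM or more as edgeR's biological coefficient of variation. This is the spread of a gene's level between libraries in percent of its mean, after counting error is taken off. Spread from library preparation stays in it. The estimates are drawn toward the trend of genes of like abundance. Their median was 16.5%, with quartiles of 13.2 and 21.9%. The median was 25.4% among genes of 5 to 20 CPM and 11.8% among genes of 1000 CPM or more. In direct terms, the highest library was under 2 times the lowest in 64.7% of these genes, and in 90.9% of those of at least 100 CPM.

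Spike-in RNAs, added to every sample as the same mixture, show by this measure the spread from library preparation, but not that from dissection or RNA extraction. Scaled to their own total in each library, the 39 synthetic transcripts with enough counts had a median coefficient of 10.6%, between 3.69 and 31.4%. For 38 of the 39 it was lower than the median of the 50 genes nearest in count. By the unshrunken moment estimate, 30 of the 39 were lower.

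**Figure D4:**
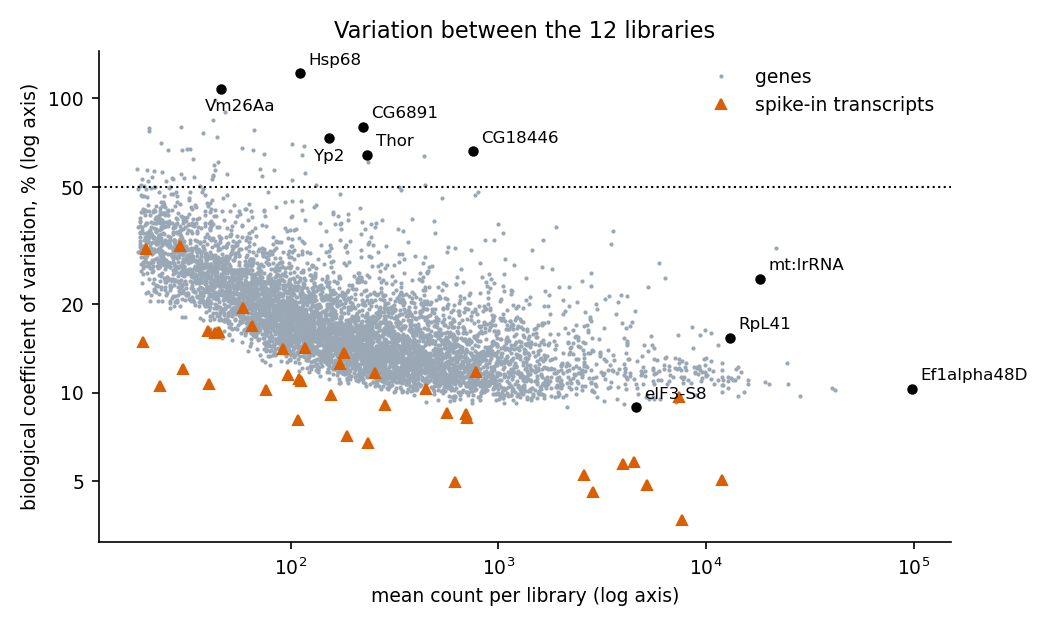
Biological coefficient of variation against mean count per library, both on log axes, for 6657 genes (grey), 39 spike-in transcripts (orange triangles) and named genes (black); the dotted line marks 50%. Hsp68 lies highest at 122%, the spike-ins lie mostly below genes of the same count, and no gene of 1000 CPM or more passes the line.

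A coefficient of 50% or more, called variable here, was found in 63 of the 6657 genes (0.946%). The count depends on the model and the filter: it was 41 with a term for day, 39 of them among the 63, and between 18 and 615 with other filters on low counts. Of the 20 most variable genes, CG5958, Yp2, Drat, Pxn and CG5853 fell below the threshold with the term for day. Of the 63, 46 had a mean of 5 to 20 CPM and none reached 1000 CPM. None of 85 ribosomal protein genes, 24 germline markers or 16 follicle cell markers was variable, and the highest values in these lists were 21.2, 27.5 and 30.1%. Among the vitelline membrane genes 3 of 7 were variable, as were 2 of 12 heat shock genes. Just inside the threshold lay CG31183 at 50.1% and just outside it the yolk protein gene Yp3 at 49.8%. Values per library below are CPM scaled by TMM.

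The heat-inducible chaperone gene Hsp68 had the highest coefficient, 122%, which fell to 73.5% without day 6 replicate 1. It stood at 246 CPM in day 6 replicate 1, between 1.03 and 23.9 CPM in the other 11 libraries, and at 5.15 CPM at the median. The small heat shock gene Hsp23 was also highest in day 6 replicate 1, at 32.3 CPM against 2.54 to 9.06 elsewhere. Without that library its coefficient of 66.7% fell to 34.2%, below the threshold. Both were thus high in the same library and low in the rest. The list of 24 heat shock genes as a whole was not raised there. Without TMM scaling it summed to 19719 CPM in day 6 replicate 1, of which Hsc70-4 had 11093 CPM. Its median was 19608 CPM, and its highest sum was 28172 CPM, in day 7 replicate 3. Among genes of 1000 CPM or more the highest coefficient, 31.1%, belonged to another chaperone gene, Hsp83, which ranged from 2053 to 7050 TPM.

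Eggshell and yolk genes formed the next group. Vm26Aa and Vm34Ca, which encode proteins of the vitelline membrane, the inner layer of the eggshell, reached 61.1 and 59.4 CPM in day 5 replicate 1 and had medians of 3.17 and 5.65 CPM. Vml, of the same family, was highest in day 7 replicate 3 at 37.7 CPM, with a lowest value of 0.745 CPM. The yolk protein gene Yp2 ranged from 4.47 to 104 CPM around a median of 26.8, and Yp1 from 4.33 to 84.7 CPM around 22.0. Vm26Aa and Vm34Ca thus shared their highest library. The most abundant gene of the vitelline membrane list, Vm26Ab, did not share it. Vm26Ab stood at 195 TPM in day 5 replicate 1 and was highest in day 7 replicate 3, at 686 TPM. The list as a whole was also highest in day 7 replicate 3. With a term for day in the model, the coefficient of Yp2 was 27.0% in place of 73.4%, and that of Yp1 41.0% in place of 64.4%. Yp1, Yp2 and Yp3 are also members of the fat body list, which summed to 494 CPM in day 7 replicate 1, its highest library, and to 134 CPM in day 5 replicate 3, its lowest. Of the 10690 counts of that list over all libraries, Yp3 held 3992, Yp2 1842 and Yp1 1364. The sum thus largely repeats the yolk genes and is no separate measure of fat body beside their values. The part of fat body in their levels was not tested. Chorion genes, which follicle cells switch on at the end of oogenesis, summed to 3.70 to 31.4 CPM, and were highest, like Vml, in day 7 replicate 3, with 28.8 CPM in day 5 replicate 1. All 10 chorion genes had counts, and 6 reached 1 TPM. The share of older chambers in each sample was not measured, and its part in these values was not tested.

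Several genes were extreme in a single library or shared their extremes. CG18446 lay between 83.5 and 326 CPM in 11 libraries and at 2.73 CPM in day 6 replicate 1, without which its coefficient of 66.1% was 34.5%. CG5853 was at 91.8 CPM in day 7 replicate 1, without which its coefficient of 66.8% was 33.2%. CG6891 had a wide spread with no single outlying library, from 2.00 CPM to 124 CPM around 58.8. The mitochondrial carrier gene Tpc2 and CG43370 were highest in day 7 replicate 2, at 63.1 and 61.0 CPM, and both were lowest in day 5 replicate 1. CG12947, CG16710 and grass, a serine protease gene of the Toll pathway, had their highest and lowest values in the same 2 libraries. Of all 6657 genes with an estimate, 372 were highest in day 7 replicate 2 and 576 were lowest in day 5 replicate 1.

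Thor, DOR and REPTOR-BP, which are known from the response to nutrients, shared their highest library. Thor, the 4E-BP repressor of translation, ranged from 8.33 CPM to 147 CPM around a median of 60.3. DOR, an autophagy gene, ranged from 6.00 to 64.7 CPM around 24.4, and REPTOR-BP, which encodes a transcription factor acting below the TOR kinase, from 1.78 to 23.5 CPM around 10.8. All 3 were highest in day 8 replicate 2, and Thor and DOR were lowest in day 6 replicate 2. Of all 6657 genes with an estimate, 826 (12.4%) were highest in day 8 replicate 2 and 690 were lowest in day 6 replicate 2. The 3 genes were set together after their values were seen, so their shared library is a description only. The cytochrome P450 gene Cyp4g1, known for hydrocarbon synthesis in oenocytes, was at 39.5 and 33.2 CPM in 2 libraries of day 8, at 0.621 CPM in the third library of that day, and at no more than 14.3 CPM in the other libraries.

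**Figure D5:**
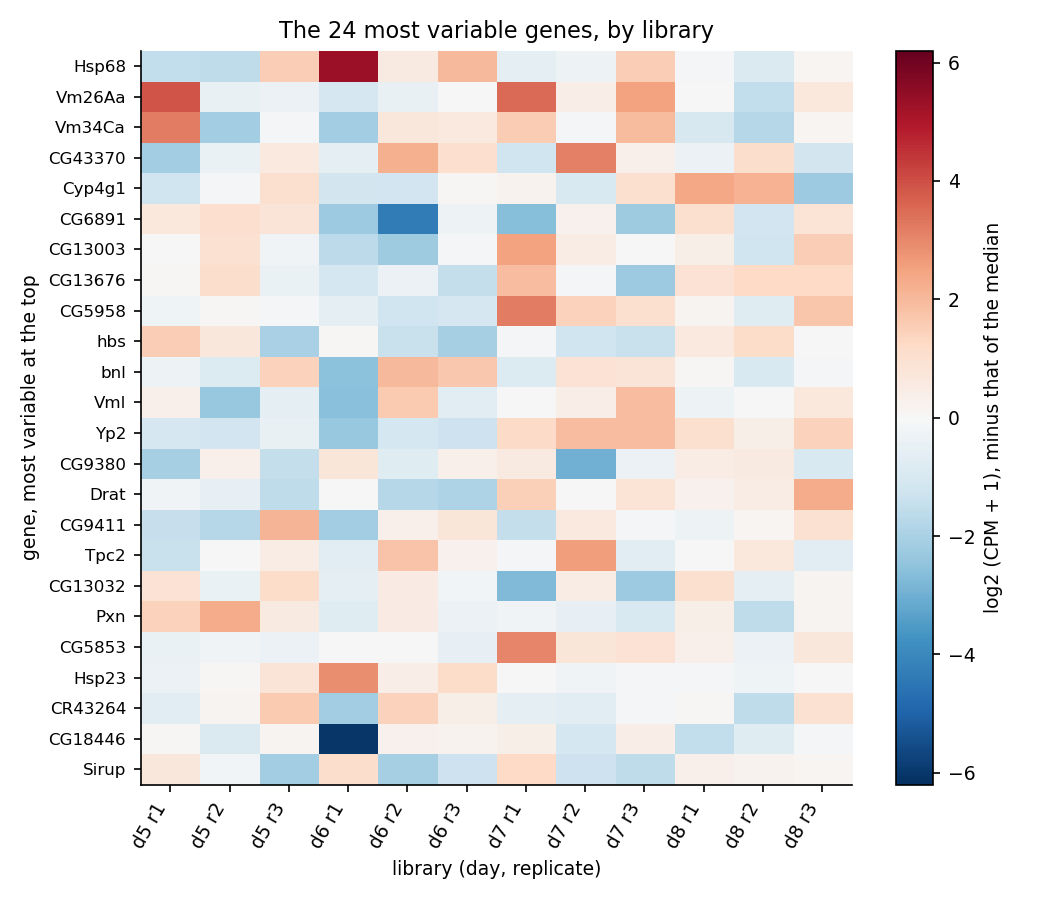
Level of the 24 most variable genes in each of the 12 libraries, as log2 (CPM + 1) minus the same of the gene's median, red for above and blue for below. Hsp68 is deep red and CG18446 deep blue in day 6 replicate 1, and CG13003, CG13676, CG5958, CG5853 and Sirup are all highest in day 7 replicate 1.

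By gene type, 4 of 20 small nucleolar RNA genes and 5 of 14 rRNA genes were variable, as were 1 of 51 ncRNA genes, 0 of 16 pseudogenes, 0 of 2 small nuclear RNA genes and 53 of 6554 protein-coding genes (0.809%). Of all genes of 5 to 20 CPM, 2.73% were variable. The types were not tested against each other. Of the 10 variable genes that are not protein-coding, 9 were highest in day 6 replicate 2 or day 7 replicate 1. Of all 6657 genes, 8.19% were highest in day 6 replicate 2 and 9.93% in day 7 replicate 1. The mitochondrial small ribosomal RNA mt:srRNA was at 226 CPM in day 6 replicate 2, 43.8 CPM at the median and 18.0 CPM at the lowest. Day 7 replicate 1 also had the largest share of counts outside protein-coding genes, 1.34%, against 0.661% in the lowest library, and it was the highest library for 16 of the 63 variable genes and 9.93% of all 6657. Many of these RNAs carry no stable polyA tail. The efficiency of polyA selection was not measured, and its part in these values was not tested.

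The steadiest genes, among those of at least 100 CPM, served varied basic functions. eIF3-S8, a subunit gene of initiation factor 3, had a coefficient of 8.94% and 650 to 755 TPM. Akap200, which encodes an anchor of protein kinase A, had 8.97% and 259 to 296 TPM. CycG, a cyclin gene, followed with 9.12%, and the cap-binding factor gene eIF-4E closed the list of 10 with 9.40%. These coefficients are drawn up toward the trend of genes of like abundance, 14.0% for eIF3-S8. Without TMM scaling, the CPM of eIF3-S8 was 1226 ± 42.4 (SD, n = 12). The 10 spike-ins of like count lay between 4.58 and 11.8%, with a median of 5.78%. Spike-in estimates are drawn toward a trend of their own, so these values do not show which set varied more. The germline gene vas was close to the 10 steadiest genes, at 9.43% and 159 to 206 TPM.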

How the data were processed

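PolyA-selected, strand-specific libraries from 200 ng of total RNA with ERCC spike-in RNAs were sequenced in single reads of 76 nt. The deposited values are raw counts per feature, not normalized, for which the submitters' processing notes name HISAT2 2.0.1, HTSeq 0.6.1p1, SAMtools 0.1.2 and CASAVA 1.8.2. Gene types, coordinates and exon lengths were read from the FlyBase 6.07 annotation that the authors deposited. The treatment of reads matching several features is not recorded in the sources used here. Of 112 genes of at least 200 nt covered whole by exons of the other strand, 69 had a count.

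The 12 sample files of days 5 to 8 hold the same counts as the merged table. Replicates differed by more than sampling noise, with a chi-square per degree of freedom of at least 6.49. The 1572 transposon insertion features, 1.46 to 2.15% of all counts, and the 96 spike-ins, at 0.912 to 2.02%, stayed out of library totals. CPM and TPM were computed here. Coefficients of variation are tagwise estimates of edgeR 4.0.16 in R 4.3.3 with TMM scaling and an intercept as the design, for genes averaging 5 CPM or more. On counts simulated for these 6657 genes, a true coefficient of 60% was estimated at a median of 42.9% and called variable in 24% of 100 genes, one of 100% at 72.1% and in 96%, and one of 15% in 0%. In that simulation variable genes of moderate spread were thus undercounted. All its other genes were set at 15%, whereas the estimates in the data have quartiles of 13.2 and 21.9%. The share missed in the data may therefore differ and was not tested.

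No test between groups was made. The members and the 40 gene lists were chosen with earlier results of these data known. Named were the 20 most abundant protein-coding genes, the 5 most abundant of each other type, the highest gene of each chromosome, the 20 most variable and 10 least variable genes, the leading members of each list, defining markers at any level and genes around the detection limit. The text gives those that carry the description. Some of these genes are not reported here. Hsp23, Yp1, CG18446, Thor, DOR, REPTOR-BP, CG12947, CG16710, grass, nolo and CG32512 were named after their values were seen, as were the paralogues set side by side in the closing section. Alternatives were other detection rules, units, lengths, normalizations (with DESeq2 1.42.0 size factors), filters, estimates, a term for day, a replicate block and leaving out each library.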

Additional observations from a re-analysis of the deposited data

How the results depend on the processing

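Counting genes of at most 9 counts as absent gave 8143 genes in place of 4677. The 20 most abundant genes held 12.9% by counts in place of 19.1% by TPM, with 10 genes in both sets of 20. As a share of TPM, protein-coding genes fell to 97.6%, the X to 15.98% and chromosome 4 to 0.723%, while the mitochondrial genome rose to 1.56%. By counts, leaving out the 20 genes of highest counts gave 19.5% for the X, 1.24% for chromosome 4 and 0.493% for the mitochondrial genome. With all genes these shares of counts were 18.8, 1.08 and 0.927%. The number of variable genes depended most on the settings, being 25 with edgeR's default filter, 615 with a filter of 1 CPM, 18 with one of 20 CPM, 41 with day as a term and 129 by the moment estimate, against 63. Of the 63, 39 were also variable with day as a term and 61 by the moment estimate. The wider filters admit genes of few counts; otherwise the cause was not tested. Leaving out each library in turn gave 4726 to 4943 absent genes, 52 to 66 variable genes and a median variation of 16.05 to 16.91%. Replicate numbers recur on every day. With the number as a replicate block, an alternative chosen after seeing the data, 38 genes were variable, 37 of them among the 63, and 15 with both number and day. Deviations from the day means correlated by over 0.1 in 12 of 18 pairs of the same number and 9 of 36 pairs of different numbers. The correlations ran from -0.16 to 0.369 (median 0.171) and from -0.454 to 0.288 (median -0.109). In all, 8 of 12 libraries correlated best with one of their own number. The deviations of a day cancel out, so the pairs are not independent. What libraries of the same number share besides it was not tested. nolo was highest in replicate 1 and lowest in replicate 3 on all 4 days, with coefficients of 57.0% and, with the block, 23.7%, and CG32512 was lowest in replicate 1 on all 4 days, with 51.0% and 27.7%. Depth limits what absence means: 3466 genes had 1 to 9 counts in all.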

Other observations

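Members of a few gene families that are used in different tissues stood at unlike levels. Ef1alpha100E, the other elongation factor 1 alpha gene, had 0.641 ± 0.689 TPM (SD, n = 12) beside 20659 ± 1245 TPM for Ef1alpha48D. Among beta-tubulins, betaTub56D stood at 1782 ± 226 TPM, betaTub60D at 131 ± 38.2 TPM and betaTub97EF at 47.5 ± 9.25 TPM, while betaTub85D, the form of the male germline, had 7 counts over the 12 libraries. Of the 10 tubulin genes, 8 reached 10 TPM and 5 reached 100 TPM. The maternal forms alphaTub67C and gammaTub37C were both present, at 291 ± 36.1 and 43.8 ± 7.93 TPM, gammaTub37C in all libraries above the highest of gammaTub23C, which ranged from 15.6 to 28.9 TPM. The cytoplasmic actins Act5C and Act42A were at 1506 ± 239 and 404 ± 62.0 TPM and Act57B, a muscle form, at 66.4 ± 30.5 TPM, against 0.652 ± 0.690 TPM for the flight muscle actin Act88F. Hsc70-4 was at 8005 ± 657 TPM and its relative Hsc70-1 had 3 counts. Coding sequences within these families are alike, and the assignment of reads in shared stretches was not tested.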
